A study of Mus musculus with 21 samples.

Results

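The circadian clock genes examined here were the repressors Per1, Per2, Per3, Cry1 and Cry2, the activator Clock, the nuclear receptors Nr1d1 and Nr1d2, and the output factors Dbp and Tef. Their rows were taken by gene symbol, from a list chosen with earlier results of these data known. Each gene had 1 row among 31553 features of the Neuro2a table and 1 row among 39008 features of the mouse nuclei table. All 10 passed the filter on low values in both tables. The question put to them was whether the groups of mice, or the sets of Neuro2a libraries, differed in genes that follow the time of day.

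PolyA RNA was sequenced from 12 cultures of Neuro2a, a mouse neuroblastoma cell line, and from 9 samples of NeuN-sorted nuclei, NeuN being a nuclear protein of neurons. Of the Neuro2a cultures, 6 (called CRISPRa) received 750 ng each of a guide RNA plasmid and a plasmid for sadCas9-VP64, a nuclease-dead Cas9 joined to the VP64 activation domain. The other 6 (called VP64) received the sadCas9-VP64 plasmid without a guide, so that both groups carried the activator. Library names place 3 cultures of each group in a set numbered 7 and 3 in a set numbered 8, and the labels do not say what the set number stands for. The nuclei came from 200 mg of cortex of mice on a C57BL/6J background, in 3 groups of 3 libraries: wild type (WT), Scn2a+/- (Het), and Scn2a+/- injected with AAV-sadCas9-VP64 and rAAV carrying the Scn2a guide (Het CRISPRa). The injection, 500 nL into the medial prefrontal cortex, was given 4 weeks before the mice were used. Whether WT and Het mice were injected is not in the labels, nor is the age or sex of any group. Lights were on for 12 h of the day from 6 AM, and the labels give no hour of collection for mice or cultures. Nothing in the labels says that the Neuro2a replicates were grown as separate cultures on separate days, so their p-values measure the spread among these libraries alone, part of which may be technical.

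In the mammalian clock, CLOCK and BMAL1 bind E-box sequences and switch on the Per, Cry and Nr1d genes and Dbp. PER and CRY proteins then return to the nucleus and repress CLOCK and BMAL1. The REV-ERB receptors made from Nr1d1 and Nr1d2 repress Bmal1, and DBP and TEF act on D-box sequences of further clock and output genes. Dbp, Nr1d1 and the Per genes follow the hour of the day closely in many tissues, in opposite phase to Bmal1, and Per1 also responds within a short time to cAMP, calcium and growth factor signals.

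To show the sequences through which these factors act, the RefSeq promoter windows of the members (assembly GRCm38.p6, 250 bases before to 50 after a gene start) were searched on both strands. The windows numbered 13 and covered 9 of the 10 genes, several genes having more than 1 start, with none for Per2. The E-box letters CACGTG stood in 4 windows, of Per1, Cry1 and both starts of Tef, beside 7.15% of all 32851 windows. The D-box letters TTACGTAA or TTATGTAA stood in 1 member window, that of Per3, with 2 matches, beside 1.06% of all windows. The stretches holding them are printed 5′ to 3′ on the strand of the gene, with the matched letters in capitals. The assembly is not the one named in the submitters' processing notes, so these coordinates belong to GRCm38.p6 alone.
Per1, chr11:69098758-69098813, + strand: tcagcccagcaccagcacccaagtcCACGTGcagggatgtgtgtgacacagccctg
Cry1, chr10:85185084-85185139, - strand: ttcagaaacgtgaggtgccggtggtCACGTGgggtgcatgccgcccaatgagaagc
Tef, chr15:81802521-81802576, + strand: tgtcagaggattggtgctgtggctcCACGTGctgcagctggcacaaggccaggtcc
Tef, chr15:81811251-81811306, + strand: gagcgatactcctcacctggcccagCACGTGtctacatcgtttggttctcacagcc
Per3, chr4:151044791-151044895, - strand: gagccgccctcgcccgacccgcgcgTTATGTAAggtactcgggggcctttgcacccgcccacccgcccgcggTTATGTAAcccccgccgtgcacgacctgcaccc
The E-box of Per1 began 166 bases before its start and that of Cry1 60 bases before. The Tef matches began 127 and 138 bases before 2 different starts, and those of Per3 205 and 158 bases before. The related E-prime letters CACGTT stood in windows of Cry1, Cry2 and Nr1d1 (4.68% of all windows), the nuclear receptor core AGGTCA in windows of Clock, Nr1d2 and Per1 (16.3%), and TGACG, the core of a cAMP response element, in windows of Per1, Cry1 and Cry2 (20.8%). The whole element TGACGTCA, found in 1.79% of all windows, stood in no member window. None of the 6 motifs was in the Dbp window. A match describes these letters in this window and not binding.

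Each Neuro2a library held an estimated 15.5 to 21.0 megareads and each nuclei library 15.5 to 20.1 megareads, and members held an estimated 165 reads (Per3) to 4062 reads (Nr1d2) per Neuro2a library and 140 (Cry1) to 7688 (Tef) per library of nuclei. Neuron markers summed to 2435 to 2718 CPM (reads of a gene scaled to a fixed library total) in nuclei, against 6.02 to 15.1 for astrocytes, 7.04 to 16.6 for microglia, 0.647 to 1.82 for vascular cells and 95.05 to 118 for oligodendrocytes. Striatal neuron markers ranged most, from 49.97 to 234 CPM. The 5 sympathetic markers of neuroblastoma summed to 633 to 897 CPM in Neuro2a. Scn2a, the targeted gene, averaged 3.09 CPM in VP64 and 4.61 in CRISPRa Neuro2a, and 250.3 in WT, 229.7 in Het and 271 in Het CRISPRa nuclei. In bulk RNA, fewer cells of a type and less RNA per cell cannot be told apart.

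With the guide, Neuro2a cultures held more Per1 and Nr1d1 and less Per2, Dbp and Tef than cultures with the activator alone. The groups also differed in a transgene feature named McherryPuro, present in CRISPRa libraries and at 0 CPM in every VP64 library. Its part was not tested. Over all 12 libraries 2 of the 10 members rose and 3 fell at an adjusted p under 0.05 (limma on log2(CPM + 0.5), 6 against 6), where 10.0% of the 14398 genes tested were called higher and 5.02% lower. The median difference of the members was -0.14 on that log2 scale, and that of all genes 0.06. Under median-of-ratios scaling the calls over all genes were 1085 higher and 1078 lower, and under quantile scaling 1058 and 1015, beside 1443 and 723 as deposited.

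Per1 encodes a PER repressor and can also be induced as an immediate early gene. It stood at 42.4, 47.0 and 45.3 CPM in the CRISPRa libraries of set 7 and at 37.5, 40.7 and 40.7 in those of set 8. The VP64 libraries held 29.1, 25.2 and 28.6 CPM in set 7 and 24.7, 28.9 and 24.8 in set 8. Every CRISPRa library was above every VP64 library, and Per1 was the one member whose groups did not overlap, as in 8.75% of all genes. The means were 42.3 ± 3.45 and 26.9 ± 2.18 CPM (SD, n = 6 each), and Per1 rose by 0.64 ± 0.07 (SE) on the log2 scale (limma adjusted p = 0.000187, two-sided exact permutation p = 0.00216, the smallest that 6 against 6 allows). The call held in 22 of 22 alternative settings, with values of 0.58 to 0.69.

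Per2, the other rapidly regulated PER gene, went the opposite way. Its CRISPRa libraries held 11.5, 10.4 and 10.6 CPM in set 7 and 14.6, 14.0 and 12.2 in set 8. The VP64 libraries held 15.5, 16.6 and 13.4 CPM, then 16.5, 16.96 and 16.2. The groups met only where the highest CRISPRa libraries passed the lowest VP64 library. Per2 fell by 0.37 ± 0.10 (SE) on the log2 scale (limma adjusted p = 0.0249, exact permutation p = 0.00649).

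Per3, the third PER gene, and the cryptochromes Cry1 and Cry2, which act with PER as repressors, were not called. Per3 lay between 9.89 and 14.2 CPM in CRISPRa and 11.5 and 14.3 in VP64 libraries (log2 difference -0.16, 95% interval -0.37 to 0.05). Cry1 lay between 33.8 and 39.3 CPM in CRISPRa and 33.1 and 41.4 in VP64 (-0.02, -0.16 to 0.12). Cry2 lay between 17.9 and 23.0 CPM in CRISPRa and 18.1 and 21.9 in VP64 (0.03, -0.15 to 0.20). In all 3 genes the groups overlapped through most of their ranges.

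Dbp, the D-box activator that is a direct CLOCK target, fell by 0.64 ± 0.17 (SE) on the log2 scale (limma adjusted p = 0.0238, exact permutation p = 0.00649). Its CRISPRa libraries held 11.2, 12.0 and 10.4 CPM in set 7 and 18.9, 17.9 and 22.4 in set 8, and its VP64 libraries 21.8, 22.8 and 20.5, then 24.3, 26.9 and 24.9. The low values were those of the CRISPRa libraries of set 7, and 1 CRISPRa library of set 8 lay among the VP64 libraries. The means were 15.5 ± 4.92 and 23.5 ± 2.29 CPM (SD, n = 6 each).

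Tef, a second D-box activator of the same family, had a different layout. Its VP64 libraries of set 7 held 220.0, 213.7 and 219.7 CPM. The other 9 libraries lay together, at 140.4, 137.4 and 124.2 CPM (CRISPRa, set 7), 131.9, 137.3 and 133.2 (CRISPRa, set 8), and 140.7, 138.7 and 147.8 (VP64, set 8). The pooled difference of -0.39 ± 0.13 (SE; limma adjusted p = 0.0499, exact permutation p = 0.00433) thus rested on the VP64 libraries of set 7. The Tef call was lost in 12 of 22 alternatives, with an adjusted p of up to 0.195.

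Nr1d1 encodes REV-ERB alpha. Its CRISPRa libraries held 42.5, 42.8 and 40.1 CPM in set 7 and 47.5, 50.8 and 50.4 in set 8, and its VP64 libraries 36.3, 33.3 and 36.9, then 35.0, 42.0 and 37.0. A single VP64 library of set 8 reached into the range of the CRISPRa libraries. Nr1d1 rose by 0.31 ± 0.08 (SE) on the log2 scale (limma adjusted p = 0.0161, exact permutation p = 0.00433), but not past the threshold under median-of-ratios scaling (adjusted p = 0.0679) or quantile scaling (adjusted p = 0.0798). Nr1d2, its paralogue REV-ERB beta, was not called over all 12 libraries (-0.22 ± 0.09, limma adjusted p = 0.109, exact permutation p = 0.0498). Clock, the activator, was not called either (-0.13 ± 0.07, limma adjusted p = 0.228).

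Single libraries decided whether the falls over all 12 libraries passed. Leaving out any 1 of the 3 CRISPRa libraries of set 7 left 2 members called, Per1 and Nr1d1. The differences then were -0.54 to -0.58 for Dbp, -0.33 to -0.36 for Per2 and -0.37 to -0.41 for Tef, so their sizes stayed near those of all 12 libraries. Leaving out replicate 2 of VP64 left 3 calls, with Dbp as the fall, and leaving out replicate 5 left 3, with Tef as the fall. Set 8 taken alone also gave 3 calls, Per1 and Nr1d1 higher and Dbp lower. In the authors' deposited comparison, 5 members had an adjusted p under 0.05: Per1 with a log2 fold change of 0.59, Per2 with -0.44, Dbp with -0.66, Tef with -0.48 and Nr1d1 with 0.25.

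**Figure D1:**
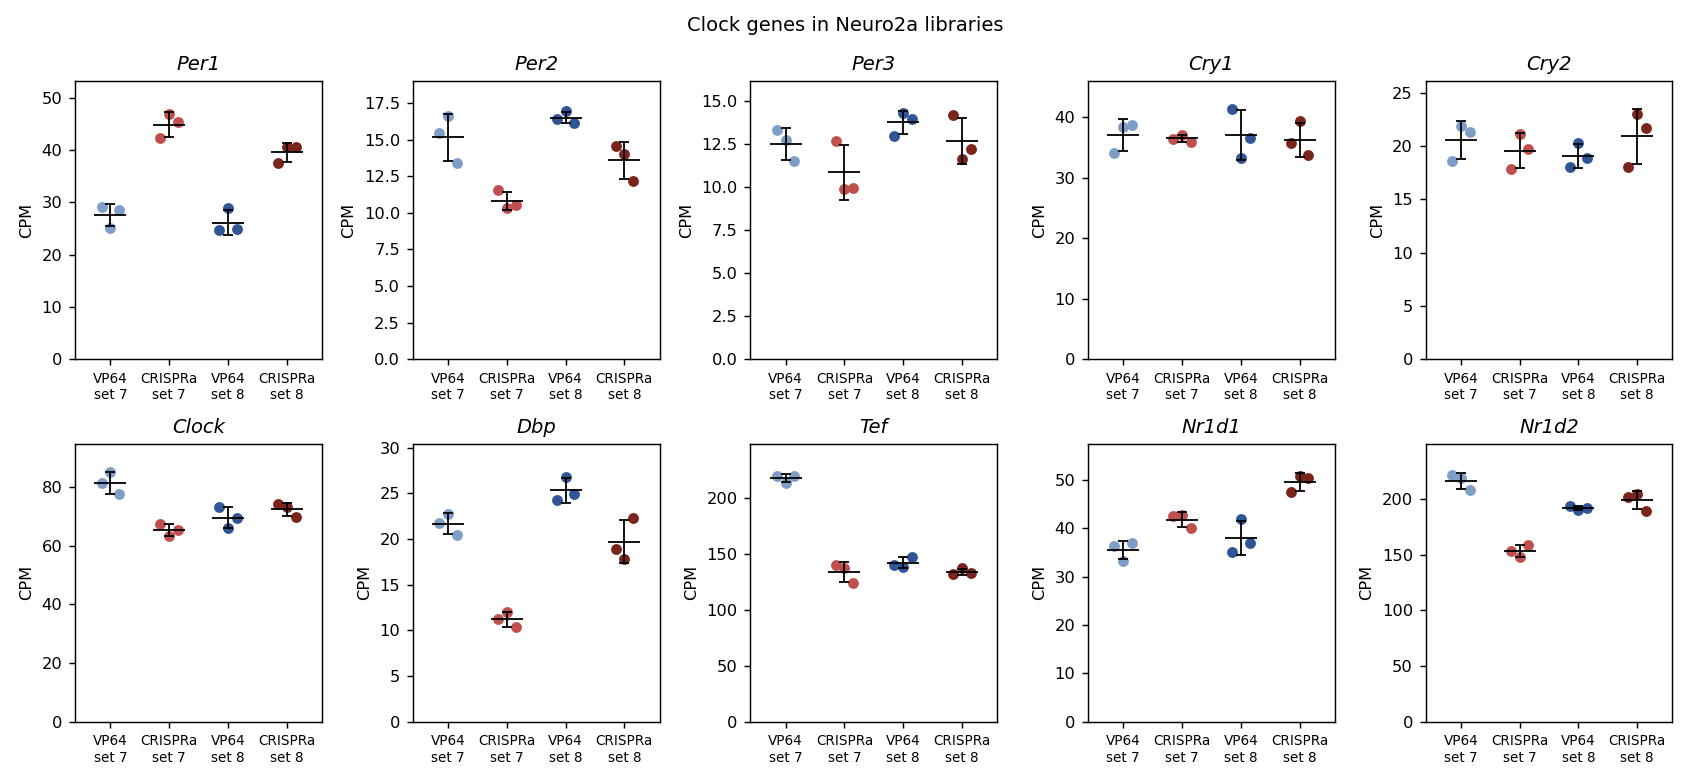
CPM of the 10 clock genes in the 12 Neuro2a libraries, by group and library set (points are libraries, horizontal lines means, bars SD, n = 3 in each column, vertical axes start at 0). Per1 is higher in both CRISPRa columns, Dbp is lowest in the CRISPRa libraries of set 7, and Tef stands near 220 CPM only in the VP64 libraries of set 7.

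Taken by library set, the guide comparison gave more calls in set 7 than in set 8, among the members and over all genes. In set 7 (3 against 3, with the spread of all 12 libraries shared in the fit) 2 members rose and 5 fell, where 29.7% of all genes were called higher and 17% lower. The falls were Dbp by 0.92, Tef by 0.70, Nr1d2 by 0.49, Per2 by 0.47 and Clock by 0.31 on the log2 scale, and the rises Per1 at 0.69 and Nr1d1 at 0.23. In set 8, 2 rose and 1 fell, where 14.4% of all genes were called higher and 10.4% lower. These counts of set 8 are near the background. Per1 stood at 0.59, Nr1d1 at 0.38 and Dbp at -0.36 (limma adjusted p = 0.00761), while Per2 at -0.28 (adjusted p = 0.0555) and Tef at -0.09 (adjusted p = 0.195) did not pass. An exact permutation test of 3 against 3 libraries cannot go below 0.1, the value reached by each of the 7 members called in set 7. Under median-of-ratios scaling the calls over all genes were 3137 higher and 3341 lower in set 7 (4276 and 2443 as deposited) and 1659 and 1946 in set 8 (2073 and 1502 as deposited).

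**Figure D2:**
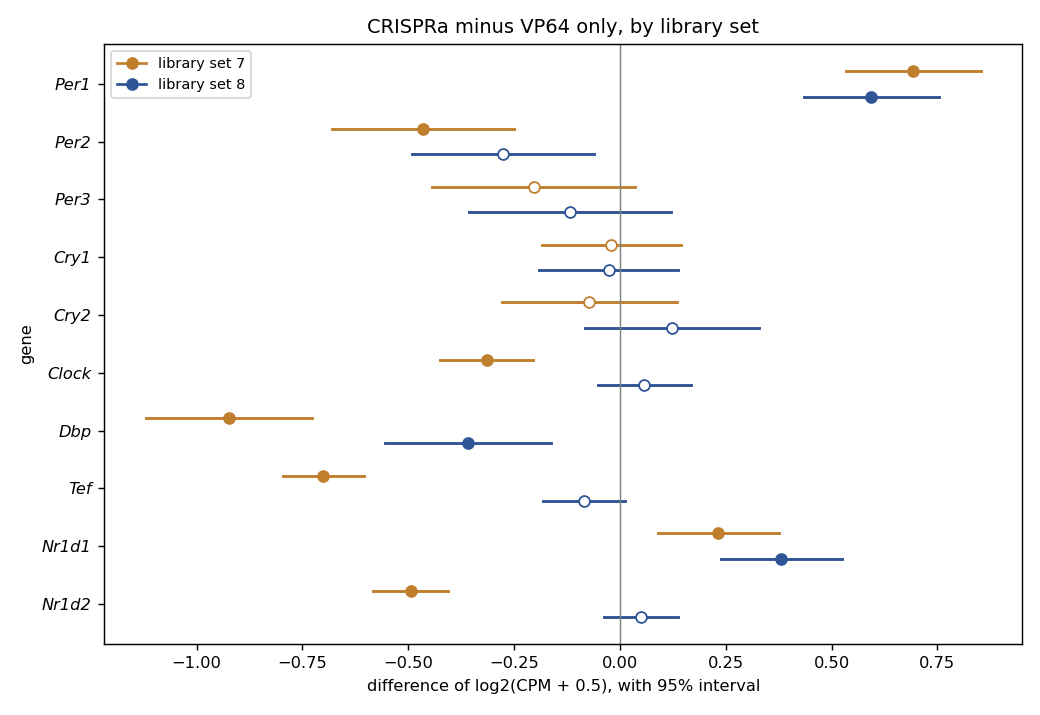
Difference of log2(CPM + 0.5) between CRISPRa and VP64 libraries for each clock gene, with 95% intervals from the limma fit, in library set 7 and library set 8. Filled points have an adjusted p under 0.05, and the sets lie apart for Clock, Dbp, Tef and Nr1d2 while Per1 stands at 0.69 and 0.59.

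The difference between sets was tested itself, as the guide effect in set 8 minus that in set 7. It was above 0 and past the threshold for 4 members and below 0 for none, where 9.42% of all genes were called higher and 12.3% lower. Tef differed by 0.61 ± 0.07 (SE; limma adjusted p = 1.66e-06), Nr1d2 by 0.54 ± 0.06 (adjusted p = 2.29e-06), Dbp by 0.56 ± 0.13 (adjusted p = 0.00459) and Clock by 0.37 ± 0.07 (adjusted p = 0.00133). These 4 calls held in each of 19 alternatives. The members' median was 0.19 and that of all genes -0.05. Per1 (-0.10, 95% interval -0.32 to 0.13), Per2 (0.19, -0.11 to 0.49) and Nr1d1 (0.15, -0.05 to 0.35) were not called. Under median-of-ratios scaling the calls over all genes were 1760 higher and 1326 lower, beside 1357 and 1775 as deposited.

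Within each group the sets differed in members as well, and in many other genes. Clock and Nr1d2 were called in both groups and in opposite directions. Among VP64 libraries, set 8 minus set 7, Tef fell by 0.61, Clock by 0.22 and Nr1d2 by 0.17 on the log2 scale and no member rose. Of all genes there 19.9% were called higher and 25.9% lower, so that 3 falls among 10 members are near the background. Nr1d2 stood at 221.7, 218.6 and 208.2 CPM in set 7 and at 193.7, 190.6 and 191.6 in set 8, and Clock at 81.3, 85.1 and 77.8, then 73.3, 66.1 and 69.5. Among CRISPRa libraries 5 members rose from set 7 to set 8 and none fell, where 21.3% of all genes were called higher and 33.4% lower. Dbp rose by 0.78, Nr1d2 by 0.37, Per2 by 0.31, Nr1d1 by 0.24 and Clock by 0.15. Nr1d2 there stood at 153.2, 148.3 and 158.4 CPM in set 7 and at 201.8, 204.9 and 189.6 in set 8, and Clock at 67.5, 63.3 and 65.2, then 74.2, 73.3 and 69.8. In both genes the set 8 libraries of VP64 and CRISPRa overlapped, and the VP64 libraries of set 7 lay above them. The CRISPRa libraries of set 7 lay below them in Nr1d2, while in Clock 1 of these (67.5 CPM) lay within the range of set 8. Without CRISPRa replicate 4 the 5 rises became 3, Per2 and Clock being lost, and Clock was also lost without CRISPRa replicate 2 or 5. Over the CRISPRa libraries median-of-ratios scaling gave 3830 calls higher and 3774 lower, beside 3068 and 4802 as deposited.

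Other measures moved with the library set, and their part in the clock genes was not tested. Transcripts of sadCas9-VP64 averaged 2549.6 CPM in VP64 libraries of set 7 and 349 in those of set 8, and 1977 and 599.8 in the CRISPRa libraries. Those of McherryPuro averaged 5296 CPM in CRISPRa libraries of set 7 and 1727 in those of set 8. Of 8 hypoxia-induced genes tested, 8 were higher in set 8 than in set 7 among VP64 libraries (median 1.18) and 5 among CRISPRa libraries (median 0.56). Over all genes 19.9% were called higher and 25.9% lower in set 8 among VP64 libraries, and 21.3% and 33.4% among CRISPRa libraries. In the guide comparison over all 12 libraries, 4 of these 8 fell and none rose (median -1.27). There 10.0% of all genes were called higher and 5.02% lower. By set, the guide comparison called 29.7% of all genes higher and 17% lower in set 7, and 14.4% and 10.4% in set 8. Of 11 activity genes, immediate early genes such as Fos, Egr1 and Junb, 9 rose with the guide and none fell (median 0.56). By set, 9 rose in set 7 (median 0.84) and 7 in set 8 (median 0.37). Their guide effect in set 8 minus that in set 7 was called lower for 7 and higher for none (median -0.40). For that difference 9.42% of all genes were called higher and 12.3% lower. Of 6 targets of cAMP and CREB, 2 rose with the guide and none fell (median 0.22), with 4 rises and 2 falls in set 7 and 3 rises in set 8. Of 6 glucocorticoid-induced genes, 1 rose over all 12 libraries (Sgk1, 0.93) and none fell (median -0.06). With the guide 3 of them rose and 3 fell in set 7, and 1 rose and 1 fell in set 8. Among VP64 libraries 5 of the 6 were higher in set 8 than in set 7 (median 0.34). Among CRISPRa libraries 3 were higher and 2 lower (median 0.12). Of 6 temperature-linked genes 2 rose with the guide and none fell (median 0.33), with 5 rises in set 7 and 4 in set 8.

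The wider clock was read from 20 further genes, 17 of which passed the filter in Neuro2a. Over all 12 libraries 2 rose and 3 fell (median 0.02), where 10.0% of all genes were called higher and 5.02% lower. The count of rises is near that background. Bmal2, a paralogue of the activator Bmal1, rose by 0.42 ± 0.11 (SE; limma adjusted p = 0.0231). Btrc, a ubiquitin ligase subunit that marks PER for degradation, rose by 0.26 ± 0.06 (adjusted p = 0.0148). Hlf, the third D-box activator beside Dbp and Tef, fell by 0.44 ± 0.12 (adjusted p = 0.0219), Ciart, a repressor of CLOCK and BMAL1, fell by 0.41 ± 0.12 (adjusted p = 0.0343), and Gsk3b, a kinase with many clock and other substrates, fell by 0.44 ± 0.09 (adjusted p = 0.00558). Bmal1 itself, whose phase is opposite to that of Dbp and Nr1d1, stood at 27.5 ± 3.17 CPM in CRISPRa and 25.1 ± 1.19 in VP64 libraries (SD, n = 6 each) and was not called (0.12, adjusted p = 0.321). Nfil3, the repressor at D-boxes (-0.09), and the E-box repressors Bhlhe40 (-0.23) and Bhlhe41 (0.08) were not called either, and Npas2, the paralogue of Clock, averaged 0.07 CPM in CRISPRa and 0.01 in VP64 libraries and was not tested.

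By set, 5 of these 17 genes rose and 7 fell in set 7, and 3 rose and 3 fell in set 8. Of all genes 29.7% were called higher and 17% lower in set 7, and 14.4% and 10.4% in set 8. The counts of rises are near that background. Bmal1 rose by 0.23 in set 7 (adjusted p = 0.0105) and stood at 0.01 in set 8, and the difference between sets was not called (-0.22, adjusted p = 0.123). Nfil3 fell by 0.41 in set 7 and rose by 0.23 in set 8, a difference of 0.64 (adjusted p = 1.19e-05). Hlf fell by 0.72 in set 7 and stood at -0.17 in set 8 (difference 0.55, adjusted p = 0.0134). The set effect also differed past the threshold for Gsk3b (0.42), Csnk1e (0.25), a kinase of PER, and Timeless (-0.68), a gene best known for its role at replication forks. Ciart fell in both sets, by 0.31 and by 0.50, and Bmal2 rose in both, at 0.50 and 0.34.

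Members can share reads with genes that overlap them, since the strandedness of the libraries is not given in the sources used here. RefSeq places Sphk2 over Dbp and Thra over Nr1d1. It also places Ube2n-ps1 and Gm7467 over Clock, D930015M05Rik over Cry2, Uts2 over Per3 and Gm35591 over Per2, whose values are not reported here. Sphk2, a sphingosine kinase, rose by 0.33 ± 0.07 (SE; adjusted p = 0.00681), the opposite direction to Dbp. Thra, a thyroid hormone receptor gene whose end overlaps that of Nr1d1, fell by 0.33 ± 0.09 (adjusted p = 0.021), the opposite direction to Nr1d1. Neither differed between sets in the guide effect (Sphk2 -0.18, adjusted p = 0.213, and Thra -0.04, adjusted p = 0.777). Reads of these pairs cannot be told apart without strand.

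**Figure D3:**
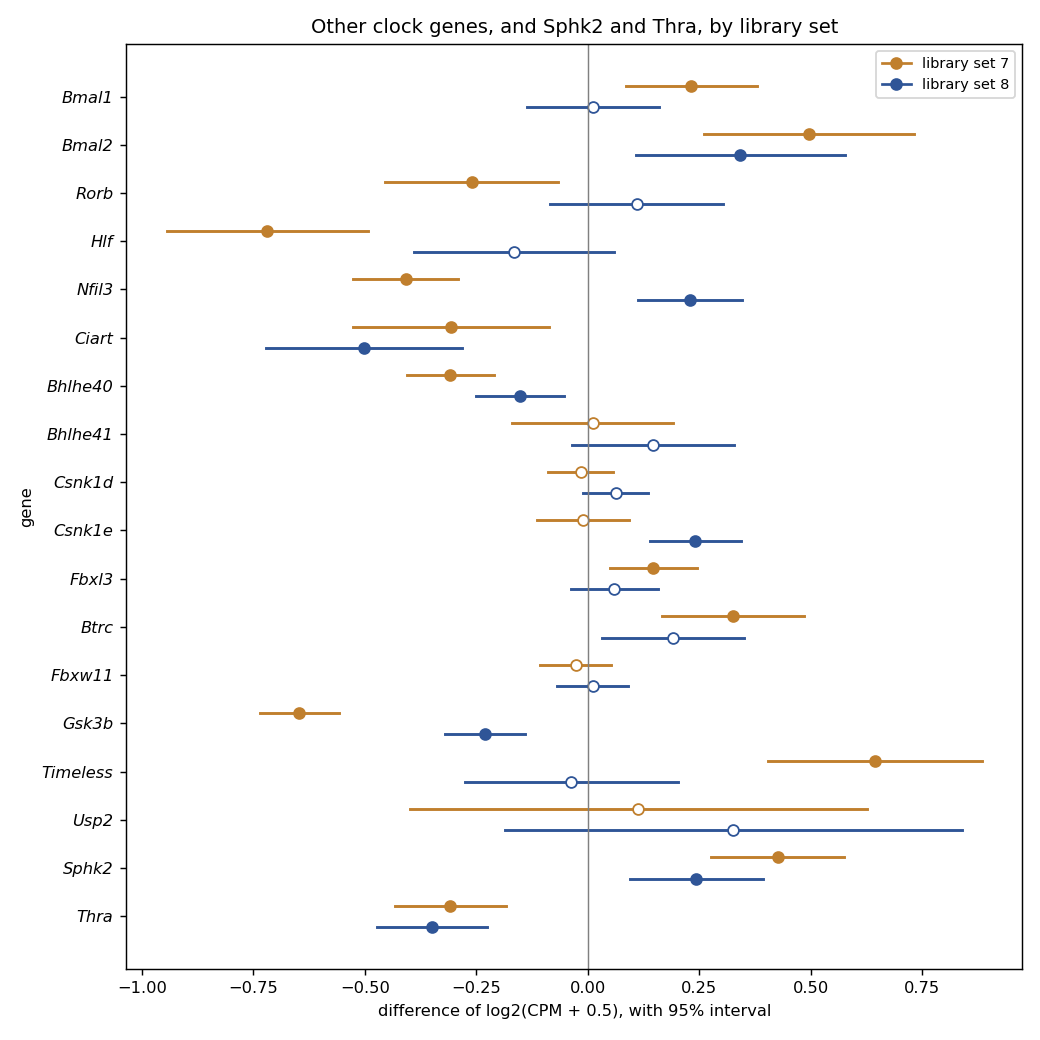
Difference of log2(CPM + 0.5) between CRISPRa and VP64 libraries for further clock genes and for Sphk2 and Thra, which overlap Dbp and Nr1d1, with 95% intervals, in library sets 7 and 8. Filled points have an adjusted p under 0.05, and Nfil3 lies at -0.41 in set 7 and at 0.23 in set 8.

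Likeness to Dbp across the 12 Neuro2a libraries, which share group and set, was described by Pearson's r of log2(CPM + 0.5). Among 12114 genes of at least 2 CPM the most like it included Agbl5, Bbx, Maz and Mvb12b, with r of 0.98. Among the members r was 0.88 for Per2, 0.80 for Nr1d2, 0.73 for Per3, 0.50 for Clock, 0.36 for Tef, -0.25 for Nr1d1 and -0.81 for Per1, and it was -0.90 for Bmal1. These values follow the layout by group and set given above.

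In the sorted nuclei no clock gene passed the test between genotypes or for the injected mice. At an adjusted p under 0.05 (limma, 9 libraries in 1 fit, 3 a group) 0 of 10 members were called in Het minus WT, where 0% of the 18967 genes tested were called in either direction. The count was 0 of 10 in Het CRISPRa minus Het, where 0.0422% of genes were called (8 genes), and 0 of 10 in Het CRISPRa minus WT, where 0.00527% were (1 gene). At an unadjusted p under 0.05 the count was also 0 of 10 in each comparison, where 951, 996 and 335 of the 18967 genes were under it, so that a count of 0 among 10 is near the background. The authors' deposited tables gave 0 members an adjusted p under 0.05. The 3 comparisons share libraries with each other.

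The 30 differences lay between -0.19 and 0.18 on the log2 scale, the largest being a ratio of 1.14. The bound of the 95% intervals farthest from 0 was 0.48, a ratio of 1.40, in Cry1, the member with the fewest reads. Members' medians were -0.06 in Het minus WT, 0.01 in Het CRISPRa minus Het and -0.02 in Het CRISPRa minus WT, and those of all genes were -0.05, 0.04 and -0.02. A p above the threshold does not show that the groups had equal levels.

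**Figure D4:**
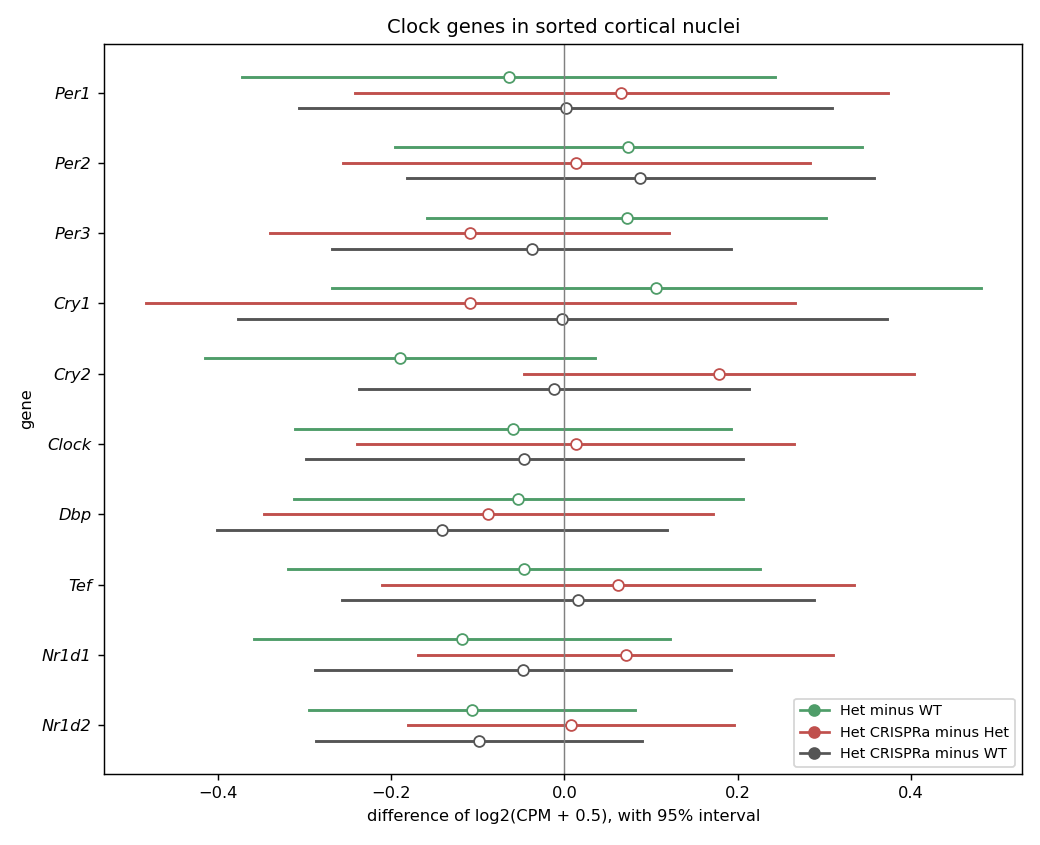
Difference of log2(CPM + 0.5) for the 10 clock genes in the 3 comparisons of sorted cortical nuclei, with 95% intervals from the limma fit (3 libraries a group). All points are open, none having an adjusted p under 0.05, and all lie between -0.19 and 0.18.

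Dbp, Nr1d1 and Nr1d2 had their highest mean in WT, with no difference past the test. Per1 and Per2 had theirs in Het CRISPRa nuclei, and Per3 in Het nuclei. Dbp stood at 119.6, 125 and 113 CPM in WT, 106, 113 and 128 in Het, and 115, 90.8 and 121 in Het CRISPRa nuclei. The means were 119 ± 5.88, 115 ± 11.2 and 109 ± 16.02 CPM (SD, n = 3 each), and the libraries of the 3 groups overlapped. Nr1d1 stood at 102, 96.9 and 88.7 CPM in WT, 94.1, 88.1 and 82.7 in Het, and 83.4, 89.9 and 106 in Het CRISPRa, with means of 95.9 ± 6.75, 88.3 ± 5.69 and 93.1 ± 11.6 (SD, n = 3 each). Nr1d2 stood at 190.8, 207 and 191 CPM in WT, 173, 195 and 179 in Het, and 192, 180.1 and 178 in Het CRISPRa, with means of 196 ± 9.31, 182 ± 11.3 and 183 ± 7.5 (SD, n = 3 each). In Nr1d1 and Nr1d2 too the groups overlapped.

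Among the repressors, Per1 stood at 158, 169.6 and 173 CPM in WT, 160.1, 189 and 135 in Het, and 145, 157 and 205 in Het CRISPRa, so that its highest and lowest libraries lay outside the WT range on both sides. Per2 stood at 146, 157 and 173 CPM in WT, 138, 193 and 173 in Het, and 155, 172 and 179 in Het CRISPRa. Per3 averaged 170.1 ± 12.9, 179 ± 20.1 and 166 ± 12.2 CPM and Cry1 10.6 ± 1.94, 11.3 ± 1.05 and 10.4 ± 0.438 (SD, n = 3 each, in the same order of groups).

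Cry2 was the one member with groups that did not overlap in any of the 3 comparisons. Its Het libraries held 85.2, 105 and 103 CPM and its Het CRISPRa libraries 108, 115 and 109, with WT at 104, 111 and 119. The difference between Het CRISPRa and Het was 0.18 (95% interval -0.05 to 0.40, limma adjusted p = 0.81, exact permutation p = 0.1, the smallest that 3 against 3 allows). Groups without overlap were found for 9.98% of all genes in that comparison, for 10.7% in Het minus WT and for 7.13% in Het CRISPRa minus WT, so that 1 of 10 members is near the background. Clock averaged 126 ± 15.8, 120.3 ± 9.22 and 122 ± 13.1 CPM and Tef 342 ± 34.4, 333 ± 50.3 and 346 ± 41.0 (SD, n = 3 each).

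**Figure D5:**
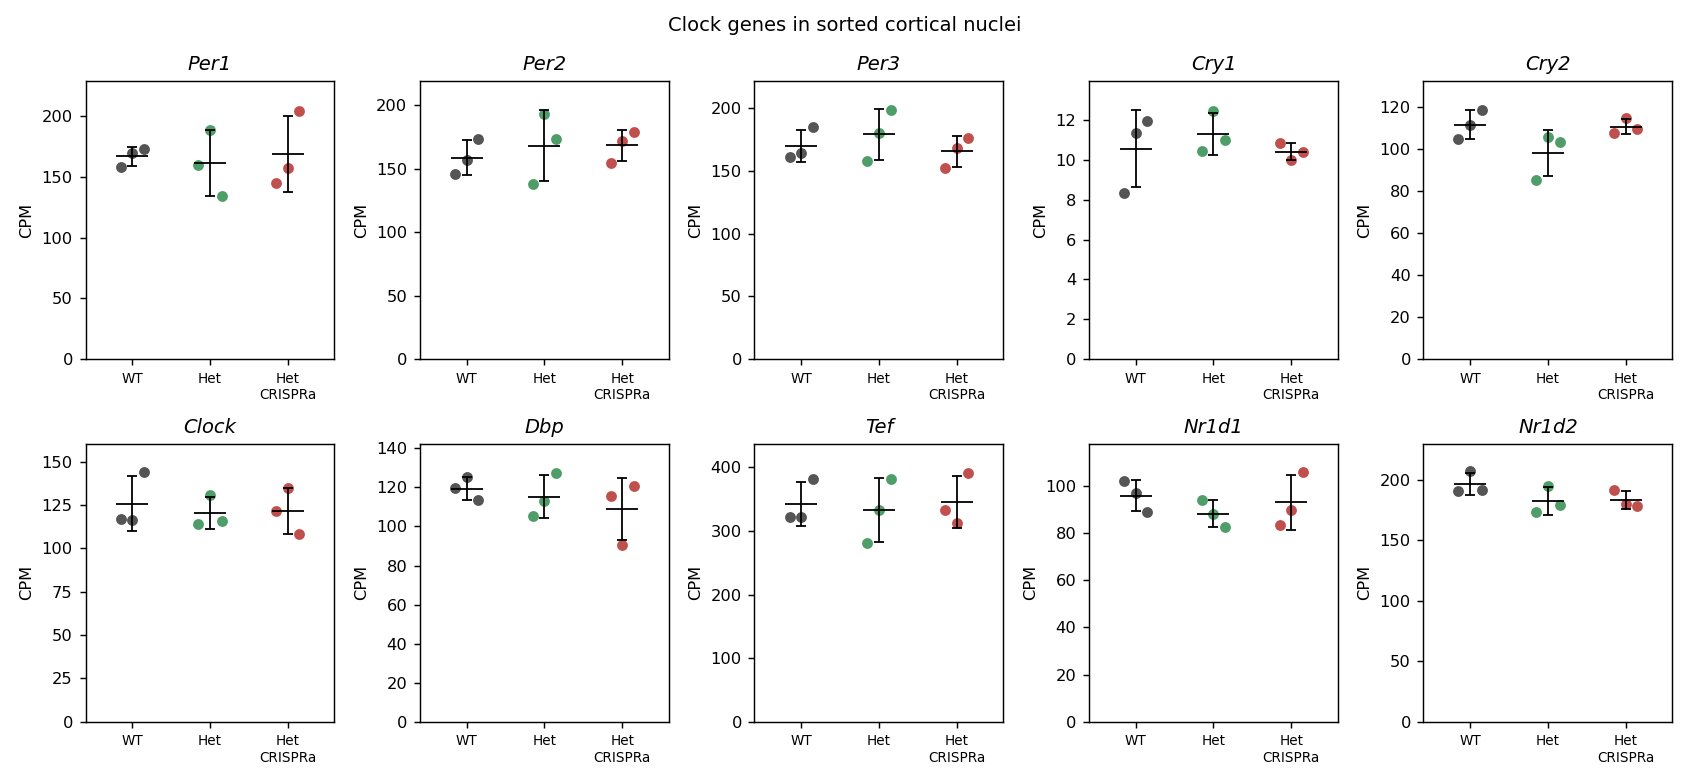
CPM of the 10 clock genes in the 9 libraries of sorted cortical nuclei, by group (points are libraries, horizontal lines means, bars SD, n = 3 each, vertical axes start at 0). The groups overlap for every member except Cry2 in Het CRISPRa against Het, and the libraries at the ends of the range change from gene to gene.

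Single libraries did not stand apart through the whole clock either. The ratio of the highest to the lowest of the 9 libraries ran from 1.20 in Nr1d2 to 1.52 in Per1, and was 1.41 in Dbp and 1.28 in Nr1d1. The spread within groups, as an SD of log2 values, was 0.07 for Nr1d2 to 0.21 for Per1, with a median of 0.17 over 9411 genes between the lowest and the highest mean CPM of the members. Among those genes Nr1d2 lay at percentile 4.98 and Per1 at percentile 67.2. Replicate 3 of Het CRISPRa held the highest value of Per1, Tef and Nr1d1 and the lowest of Clock. Replicate 1 of Het held the lowest of Per2, Cry2, Tef and Nr1d2. Among further clock genes, replicate 1 of Het was also lowest in Hlf, Npas2 and Bhlhe41, and highest in Ciart. Bmal1, whose phase is opposite to that of the Per genes, was highest (103 CPM) in the library with the highest Per1. It was lowest (74.8 CPM) in the library with the lowest Per1, replicate 3 of Het. That library also held the lowest Nr1d1 (82.7 CPM) but the highest Dbp (128 CPM) and Per3 (199 CPM). Over the 9 libraries Bmal1 had an r of -0.25 with Dbp.

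None of the 20 further clock genes tested in nuclei was called in any comparison. Bmal1 averaged 82.3 ± 4.46 CPM in WT, 84.2 ± 10.4 in Het and 92.9 ± 8.40 in Het CRISPRa (SD, n = 3 each). At an unadjusted p under 0.05 the count was 1 in Het minus WT, the E-box repressor Bhlhe40 (-0.39, limma unadjusted p = 0.0446, adjusted p = 0.875), and 0 in the others. Hlf averaged 39.7 ± 6.51, 33.2 ± 5.44 and 40.7 ± 3.13 CPM and Ciart 25.2 ± 2.34, 24.7 ± 4.93 and 22.7 ± 3.90 in WT, Het and Het CRISPRa. Of 12 activity genes 0 were called in the 3 comparisons, with 3, 2 and 6 at an unadjusted p under 0.05 in Het minus WT, Het CRISPRa minus Het and Het CRISPRa minus WT and medians of -0.23, -0.12 and -0.46. In likeness to Dbp over the 9 libraries of nuclei, the 5 genes nearest among 14202 were Tfb1m (r of 0.93), Gins2, Syt2, Vwce and Unc119, and among the members r ran from -0.50 (Clock) to 0.51 (Tef), with 0.00 for Per1 and 0.02 for Per2.

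Set side by side, the members had different levels in the 2 materials, which were normalised separately and hold RNA of whole cells and of nuclei, so that no test was made. Dbp averaged 23.5 CPM in VP64 Neuro2a libraries and 119 in WT nuclei, Per1 26.9 and 167, Per2 15.9 and 158, Per3 13.1 and 170, and Cry2 19.9 and 111. Cry1 had the opposite order, with 37.0 CPM in VP64 Neuro2a libraries and 10.6 in WT nuclei. Nr1d2 averaged 204 and 196 CPM.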

How the data were processed

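PolyA RNA-seq of 12 Neuro2a and 9 mouse nuclei libraries was used. Tools listed in the submitters' processing notes, with no role given, are featureCounts, STAR 2.7.8a, R 4.4 and DESeq2 1.44, and the builds are mm39 and GRCm39. Per the file headers the authors deposited CPM per gene in 2 tables. The authors' deposited comparison tables hold log2 fold changes, their standard errors and an adjusted p-value per gene, quoted only where named. Strandedness and the annotation release are not given in the sources used here.

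At the scale of 1 read per library, 70.8 to 73.1% of Neuro2a and 79.8 to 82.4% of nuclei values above 0 were within 0.01 of a whole read, so no count test was run. Groups came from the labels and library sets from the library names. Genes of at least 0.5 CPM in 6 Neuro2a or 3 mouse libraries (14398 and 18967 genes) were tested on log2(CPM + 0.5) with limma 3.58.1 in R 4.3.3 (lmFit, eBayes with trend), with Benjamini-Hochberg adjustment over all genes and 0.05 as the threshold. Fold changes on this scale understate those of low genes. Set contrasts used 1 fit of 4 cells, group by set. Exact two-sided permutation tests on mean CPM used scipy 1.17.1 in Python 3.11.15, with numpy 2.4.6, pandas 2.3.3 and matplotlib 3.10.9. The fit was tested on simulated data. Neuro2a libraries of the same replicate number in the labels had correlations of 0.305 to 0.499 after group means were removed, all over 0.1, so 1 alternative took them as pairs. Set means were not removed, so libraries of the same set can correlate whatever their number. The VP64 library closest to a CRISPRa library had the same number for replicates 3 and 5 only, so the correlations do not show pairing.

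The 10 members, the gene lists and the tests were chosen with earlier results of these data known. All members are named, and of the 20 further clock genes those past a test, the activators, Hlf, Nfil3, Ciart, Bhlhe40 and Bhlhe41, with genes overlapping a member and the 5 most like Dbp in each table. Lists of activity, hypoxia, cAMP, glucocorticoid and temperature genes are given by counts and medians, and Fos, Egr1, Junb and Sgk1 among them were named after their values were seen. Values of some genes under these rules are not reported here. Alternatives were other pseudocounts (0.1 and 1), filters (none, 2 CPM), scalings, a replicate block, a set covariate, single sets and each library left out.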

Additional observations from a re-analysis of the deposited data

Results flagged for a closer look

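The guide effect in Neuro2a, CRISPRa minus VP64, differed between library set 8 and library set 7 for 4 of the 10 clock genes by a test of the difference itself (limma on log2(CPM + 0.5), 3 libraries in each cell). The difference was 0.61 for Tef, 0.54 for Nr1d2, 0.56 for Dbp and 0.37 for Clock. Of all genes 9.42% were called higher and 12.3% lower in the test of that difference. Tef, Nr1d2 and Clock fell with the guide in set 7 and did not pass the test in set 8, while Dbp fell in both sets, by 0.92 and by 0.36. The set number is known from library names alone. The sets also differ in sadCas9-VP64 transcripts, in McherryPuro transcripts among CRISPRa libraries, and in hypoxia-induced and glucocorticoid-induced genes. The part of these differences was not tested. Of all genes 19.9% were called higher and 25.9% lower in set 8 among VP64 libraries, and 21.3% and 33.4% among CRISPRa libraries. In the groups of 6 Neuro2a libraries no member had a single library far from the others, and the groups of 3 were not examined in this way.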

How the results depend on the processing

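Over all 12 Neuro2a libraries 5 members were called. Set 7 alone gave 2 rises and 5 falls, and set 8 alone gave 3 calls. With 1 library left out the count was 2 to 5, the lowest without CRISPRa replicate 1, 2 or 3. Per1 kept its call in 22 of 22 alternatives, Nr1d1 in 20, Dbp in 18, Per2 in 15 and Tef in 10. The replicate block left the counts at 5 and 4 (difference between sets) and changed no call of a member there, while over all genes it gave 2865 higher and 1648 lower calls. With library set as a covariate Nr1d2 passed as well (adjusted p = 0.0276), with 3593 higher and 2092 lower calls over all genes. The calls of set 8 minus set 7 were 3 to 4 (VP64) and 3 to 7 (CRISPRa) with 1 library left out, and those of the difference between sets stayed at 4 in each of 19 alternatives. No called value changed sign. Mouse counts were 0 throughout, and of 540 member values 50 changed sign with none called. Mouse libraries of 1 number had correlations of -0.11 to 0.419 and were not taken as pairs, and the block left the counts at 0. With estimated reads and no whole counts, depth limits Cry1 in nuclei and Per3 in Neuro2a most.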
